A study of Mus musculus with 2 samples.

Results

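The data described here are 533 stretches of mouse genome called as peaks in a KLF4 ChIP-seq experiment. They lie between genes and more than 50 kb from any annotated transcription start site (TSS). They were chosen as the peaks that the authors' deposited table annotates as distal intergenic with an absolute distance to the nearest TSS above 50000 bp. They made up 12.6% of the 4216 listed peaks (95% exact binomial interval 11.7% to 13.7%) and 29.4% of the 1815 distal intergenic peaks (27.3% to 31.5%). Exact intervals here and below cover counting error only.

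The study asked how the transcription factor KLF4 acts as portal fibroblasts of the liver turn into myofibroblasts. Fibroblasts carrying a red tdT reporter were sorted from the livers of Clec3bCreERT2;R26tdT mice, in which an inducible Cre is driven from Clec3b, and received extra Klf4 by lentivirus. There was 1 KLF4 ChIP library and 1 input library, the sonicated chromatin before precipitation, and both came from cells labelled as overexpressing Klf4. Cells with their own level of Klf4 alone, and the IgG precipitation that the protocol names, were not analysed here, the number of animals pooled is not given in the sources used here, and the identity of the cells was not checked, since a peak list holds no expression.

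KLF4 is a zinc-finger factor of the Krüppel-like family that binds GC-rich and CACCC-type sequence and can both activate and repress genes. Mammalian genes are often controlled by enhancers that lie far from their promoters, and genes that steer development or are expressed in neurons tend to sit beside long stretches without other coding genes. The gene nearest to a distant peak is therefore used here as an address and need not be its target. In a full annotation the nearest gene is often a pseudogene or a small RNA gene. With 1 ChIP library no value below has a replicate error and no difference between classes of peak was tested. Positions are on GRCm39, and fold enrichments and q-values are the authors'.

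The far intergenic peaks thinned out with distance on both sides of the nearest TSS. The median distance was 89995 bp (quartiles 66.4 and 144 kb), with 309 peaks at 50 to 100 kb, 156 at 100 to 200 kb, 44 at 200 to 300 kb and 24 beyond 300 kb. Upstream and downstream positions were about equally frequent, with 270 peaks upstream of the nearest TSS (50.7%, exact interval 46.3% to 55.0%) and 263 downstream. The farthest peak lay 518 kb upstream of the long non-coding RNA gene 9330185C12Rik on chromosome 1 (114409501 to 114409865, fold 4.42). The next were 506 kb from the pseudogene Gm19102 on chromosome 6 (fold 4.60), 488 kb from Gm38269 on chromosome 1 (4.54), 475 kb from the small nuclear RNA gene Gm55847 on chromosome 8 (5.48) and 463 kb from Ndufa4 on chromosome 6 (4.54). Of these 5 most distant peaks, the one near Gm55847 had the most ChIP fragments, 8 at its summit.

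**Figure D1:**
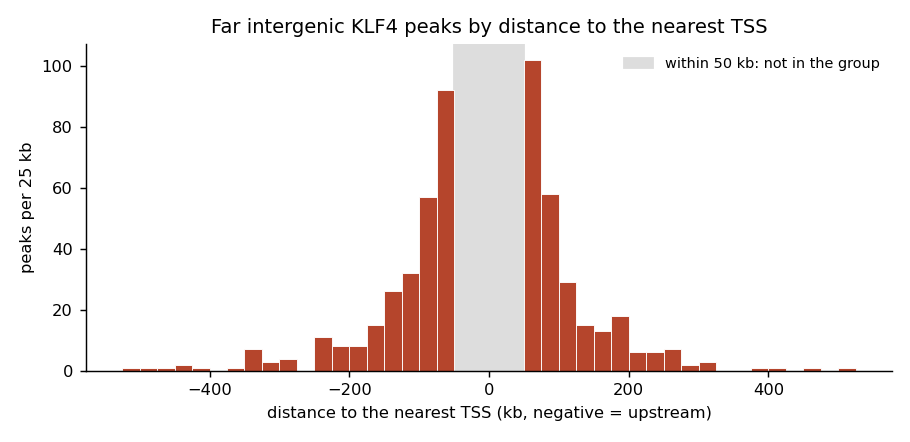
Number of far intergenic KLF4 peaks (bars, 25 kb each) against the distance to the nearest TSS in kb, with upstream distances negative and the zone within 50 kb, outside the group, in grey. The 270 upstream and 263 downstream peaks fall away on both sides from the limit, and 24 peaks lie beyond 300 kb.

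Strong and weak peaks stood on both sides of the 50 kb limit. The 3 nearest members lay 50477 bp from Gm22798, 50555 bp from Gm44271 and 50597 bp from Dusp10, with folds of 4.54, 4.91 and 6.89. The 3 distal intergenic peaks just outside lay 49.8 kb from Samd3, 49.8 kb from Gm11443 and 49.7 kb from Tln2, with folds of 4.54, 6.06 and 4.54.

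Far intergenic peaks were short and shallow, as was most of the list. Their fold enrichment over background had a median of 4.59, with quartiles at 4.54 and 4.83 and extremes at 1.62 and 7.09. Their width had a median of 194 bp, with quartiles at 136 and 291 bp. The median width was 198 bp in nearer intergenic, 195 bp in intronic and 217 bp in promoter peaks, and 201 bp over the list. Each peak's fold and p were solved for its count of ChIP fragments at the summit, which came to 5 for 217 far peaks and to 6 for 215. These 2 counts took up 81.1% of the far peaks (exact interval 77.5% to 84.3%), against 73.6% of nearer intergenic peaks (71.1% to 76.0%), 75.7% of intronic peaks (73.3% to 78.0%) and 73.7% of promoter peaks (70.7% to 76.6%). The median fold was 4.59 in all 4 classes. That is the fold of 5 fragments on the lowest background of the list, a value at which many peaks tie. Equal medians therefore do not show equal strength. The strongest nearer intergenic peak reached a fold of 14.5, the strongest intronic peak 12.2 and the strongest promoter peak 9.90, so the upper end of the far class, 7.09, was the lowest of the 4. A maximum depends on the number of peaks, and the far class was the smallest of the 4 (533 peaks, against 868 to 1349).

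The far class also held a lower share of peaks with a q under 0.01. A q under 0.01 was given to 64 of the 533 far peaks (12.01%, exact interval 9.37% to 15.1%), whereas 17.4% of the whole list had one. The share was 19.0% in nearer intergenic peaks (16.8% to 21.2%) and 21.0% in promoter peaks (18.3% to 23.8%). In intronic peaks it was 15.6% (13.7% to 17.7%), an interval that overlapped that of far peaks. Folds above 5 were seen at 102 far peaks (19.1%), against 23.2% of the list. Of far peaks, 16 had 10 or more ChIP fragments (3.002%), against 6.52% of the list. A q under 1e-05 was given to 8 far peaks (1.501%, exact interval 0.650% to 2.94%), against 2.73% of the list, 4.68% of nearer intergenic peaks (3.59% to 5.98%) and 1.26% of intronic peaks (0.736% to 2.01%). Part of the gap went along with input background: without peaks in high background a q under 0.01 was given to 10.9% of far (8.38% to 13.9%) and 14.8% of nearer intergenic peaks (12.9% to 17.0%), and 5 or 6 fragments to 82.8% (79.2% to 85.9%) and 79.1% (76.6% to 81.3%), so that these intervals overlapped.

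**Figure D2:**
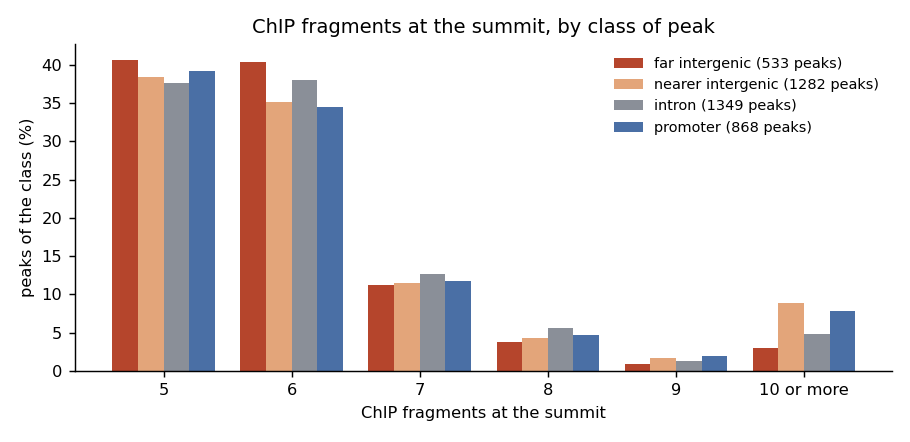
Share of peaks in % with 5, 6, 7, 8, 9 or at least 10 ChIP fragments at the summit, for far intergenic (533), nearer intergenic (1282), intronic (1349) and promoter peaks (868). The far class is highest at 5 and 6 fragments (together 81.1%) and lowest at 10 or more (3.002%).

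High input background was rare among far peaks and lay at a handful of places. Background is called high here where it exceeded 10 times the lowest of the list (0.307 fragments). This held for 11 far peaks (2.06%, exact interval 1.03% to 3.66%), against 4.79% of the list and 6.86% of nearer intergenic peaks (5.54% to 8.39%), and the 224 far peaks beyond 100 kb had none. Of these 11, 5 sat side by side on chromosome 2 (98492870 to 98497642), 61.5 to 65.8 kb from the pseudogene Gm13806. They held 353 to 2464 ChIP fragments on backgrounds 661 to 2204 times the lowest, with folds of 1.62 to 3.63. The one with 2464 fragments had a −log10 q of 599, the highest of the whole list. A further 3 lay on chromosome 10 (118455745 to 118458019) near Ifngas1, a non-coding gene beside the interferon-gamma gene, with 46 to 57 fragments, folds of 1.98 to 2.42 and backgrounds 59.9 to 92.1 times the lowest. Single peaks near Gm32235 (chromosome 10, fold 2.08), Esrrg (chromosome 1, fold 3.23) and a coding gene without a symbol on the unplaced contig JH584304.1 (fold 5.41) made up the rest. Of the 8 far peaks with a q under 1e-05, 6 were among these 11.

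Outside high background and on placed chromosomes, the 10 strongest far peaks had folds of 5.98 to 7.09 and 7 to 11 ChIP fragments. The strongest lay 94.9 kb upstream of 1700031L13Rik on chromosome 5 (82367443 to 82367749, fold 7.09, 10 fragments, q = 6.96e-06). It was followed by a peak 183 kb downstream of the start of the pseudogene Gm49859 on chromosome 17 (62361915 to 62362124, fold 7.07, 11 fragments, q = 4.93e-06). These were the 2 far peaks with a q under 1e-05 that lay outside high background. A peak of 1017 bp near the small nucleolar RNA gene Gm23234 on chromosome 6 (100401523 to 100402539) had a fold of 6.92 from 9 fragments.

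Coding genes with known roles were nearest to 2 more of these 10. A peak 50.6 kb downstream of the start of Dusp10, a phosphatase that switches off the stress kinases p38 and JNK, had a fold of 6.89 from 10 fragments (chromosome 1, 183817175 to 183817530, q = 1.53e-05). A peak of 90 bp lay 62.4 kb downstream of the start of Cd47, an integrin-associated surface protein that restrains phagocytosis, with a fold of 6.34 from 10 fragments (chromosome 16, 49749550 to 49749639, q = 1.08e-04). The remaining 5 were nearest to the pseudogenes Gm43973 (fold 6.25), Gm47335 (6.12) and Gm11235 (6.03), the small nucleolar RNA gene Gm25495 (6.12) and the non-coding gene Gm36888 (5.98).

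Far peaks were found on 21 placed chromosomes, at very unequal shares. Chromosome 1 had 52, chromosome 6 had 51, chromosome 3 had 48 and chromosome 2 had 45, and these 4 chromosomes held 36.8% of the 533. As a share of the peaks listed on a chromosome, far peaks were most frequent on chromosome 3 (21.1%, exact interval 15.9% to 26.9%), chromosome 4 (18.6%, 13.2% to 25.2%), chromosome X (18.2%, 10.3% to 28.6%) and chromosome 15 (17.7%, 12.8% to 23.4%). They were least frequent on chromosome 10 (5.42%, 3.13% to 8.66%), chromosome 19 (5.76%, 2.52% to 11.03%), chromosome 7 (6.92%, 3.504% to 12.04%), chromosome 13 (7.28%, 3.69% to 12.7%) and chromosome 11 (7.49%, 4.42% to 11.7%). The intervals of chromosomes 3 and 4 lay above those of chromosomes 10, 19, 7, 13 and 11. On chromosome 10, 126 of the 295 listed peaks lay in high background; without them the far share there was 7.101%. Chromosome Y had 2 listed peaks, of which 1 was a far peak.

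Counted along the chromosome instead, up to the last listed peak, there were 0.197 far peaks per Mb over the placed chromosomes. Chromosomes 15 (0.367 per Mb), 6 (0.342), 8 (0.324) and 3 (0.309) had the most, and chromosomes 7 (0.0760), 12 (0.0763) and X (0.0843), leaving out Y, the fewest. Chromosome X thus stood high by share and low by length, since it had 0.464 listed peaks of any kind per Mb, against 2.39 on chromosome 6.

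**Figure D3:**
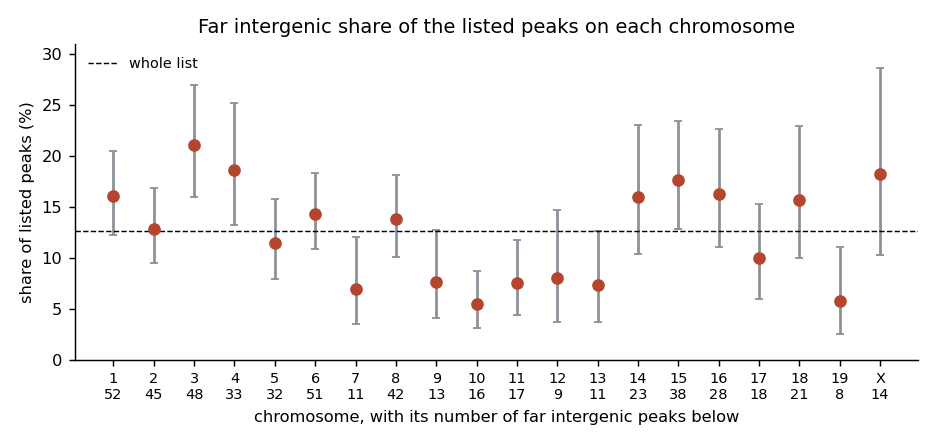
Far intergenic peaks as a share in % of all listed peaks on each chromosome (points), with 95% exact binomial intervals (bars), the share in the whole list (dashed line, 12.6%) and the number of far peaks under each chromosome. Chromosome Y, with 2 listed peaks, is left out. Chromosomes 3, 4 and 15 lie above the line, and chromosomes 7, 10, 11 and 19 lie below it, with their whole intervals.

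Many far peaks followed each other without any other listed peak between them. Of the 531 far peaks on placed chromosomes, 171 (32.2%) stood in 46 stretches of 3 or more consecutive listed peaks that were all far intergenic. The same count over nearer intergenic peaks, a larger class, gave 106 stretches with 33.5% of its peaks, a like share. The 46 stretches lay on 16 chromosomes, with 7 each on chromosomes 1 and 6, 5 on chromosome 2 and 4 on chromosome 15. Their median span was 830 kb, 20 spanned more than 1 Mb, and in 32 no peak was nearest to a coding gene. A coding gene without a listed peak may lie inside such a stretch.

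The 9 stretches with 5 or more far peaks spanned 0.798 to 3.55 Mb. The coding genes beside them were read from the gene order of an older assembly, GRCm38.p6, in which 99.5% of neighbouring listed genes (2598 of 2611 pairs) kept their order. They were placed by the peaks whose nearest gene was in that assembly, so other peaks of a stretch may lie past a named neighbour. Of the 31 neighbours of all 46 stretches that have a transcript in the deposited table, 6 had it inside the stretch. The longest in peaks, on chromosome 2 (97597899 to 99008633), held 9 peaks between Lrrc4c, a synaptic adhesion gene, and Iftap, and included the 5 high-background peaks near Gm13806. Its other 4 peaks had folds of 4.43 to 4.74 from 5 to 7 fragments.

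On chromosome 8 (101516714 to 103112888), 7 peaks lay between the cadherin genes Cdh8 and Cdh11, whose products join cells to each other. Their distances to the nearest TSS were 63.7 to 475 kb, their folds 4.47 to 5.48 and their fragments 5 to 8. A stretch of 6 peaks on chromosome 1 (144340152 to 145946274) held 4 peaks upstream of Gm38269, with folds of 5.64, 4.54, 4.77 and 4.54, in a region of RGS genes, regulators of G-protein signalling, that also borders Brinp3. The listed transcript of Rgs21 lay inside this stretch. A further 6 on chromosome 1 (27091279 to 30639361) were spread over 3.55 Mb and 5 nearest genes.

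The stretches with 5 peaks each lay on 5 chromosomes. One on chromosome 5 (78124308 to 80457015) lay between Igfbp7, which encodes a secreted binding protein of insulin-like growth factors, and Adgrl3, an adhesion receptor gene of neurons. One on chromosome 15 (49223722 to 50893048) followed Csmd3 and took in the listed start of Trps1, a transcriptional repressor of the GATA family. One on chromosome 6 (19947563 to 20911428) lay between Ankrd7 and the potassium channel gene Kcnd2, with a peak at a fold of 5.35. One on chromosome 17 (77453927 to 78354102) lay between Fam98a and Crim1 and held the highest fold of these 9 stretches, 5.84 from 8 fragments. The last, on chromosome 4 (37719433 to 38517646), lay between the neuronal receptor gene Lingo2 and 1700009N14Rik.

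**Figure D4:**
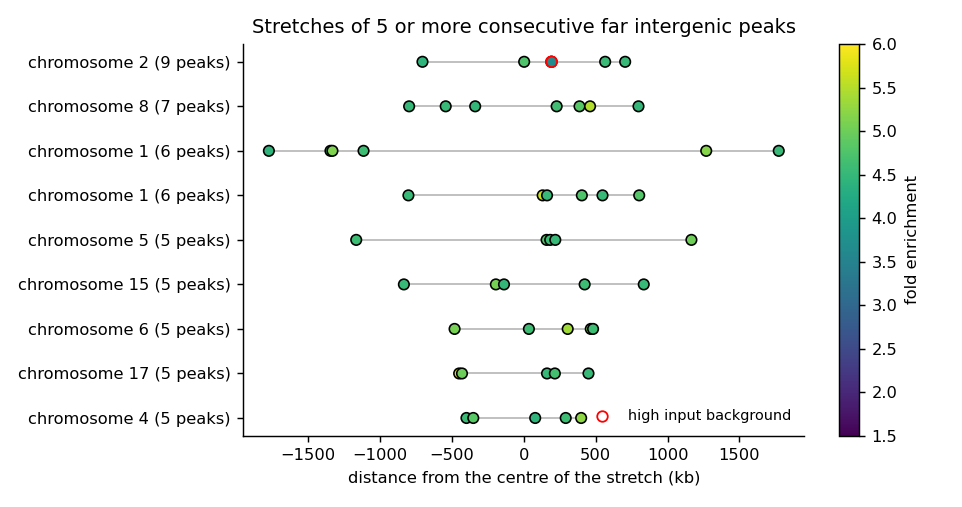
Peaks (points) of the 9 stretches with 5 or more consecutive far intergenic peaks, by distance in kb from the centre of the stretch, coloured by fold enrichment, with peaks in high input background outlined in red. The 5 red-outlined peaks on chromosome 2 fall on nearly the same place; the other peaks are spread over 0.798 to 3.55 Mb with folds of 4.42 to 5.84.

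Coding neighbours could be read for 42 of the 46 stretches, 36 of which had all their matched peaks in a single gap between coding genes. Among the 91 neighbouring coding genes, 15 were on a list of 76 neural adhesion and synapse genes (16.5%, exact interval 9.53% to 25.7%), which makes up 0.347% of the coding genes of that assembly. They were the cadherins Cdh6, Cdh8, Cdh9, Cdh10 and Cdh11, the protocadherins Pcdh7 and Pcdh18, the teneurins Tenm2 and Tenm3, and Adgrl3, Csmd3, Lrrc4c, Ncam2, Robo1 and Slitrk5. A place on this list does not confine a gene, such as Cdh11, to neurons, and expression in the cells used was not examined. For the stretches of nearer intergenic peaks, 8 of 308 neighbours were on the list (2.60%, 1.13% to 5.05%), and Adgrl3 and Pcdh7 were neighbours in both classes. This list and those below were chosen with earlier results of these data known, so the shares are a description and not a test. Of developmental regulators there were 3 (Irx1, Irx2 and Irx4, at 1 stretch on chromosome 13), of TGF-beta, BMP and Wnt genes 2 (Bmp2 and Acvr2a), of the KLF and SP family 1 (Klf12) and of fibroblast and matrix genes 0. Of the 308 neighbours of nearer intergenic stretches, these 4 lists held 5, 2, 2 and 1, and the exact intervals of the shares overlapped for each list. The lists make up 0.274%, 0.279%, 0.119% and 0.269% of the coding genes of the assembly. The length of the gaps between coding genes was not compared, so the part that it has in these counts was not tested.

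By the annotation of the nearest gene, far peaks mostly stood next to non-coding genes. A processed pseudogene, an inactive gene copy made through RNA, was nearest for 203 far peaks (38.1%, exact interval 33.9% to 42.4%), against 27.9% of nearer intergenic peaks (25.5% to 30.5%). A long non-coding RNA gene was nearest for 122 (22.9%, 19.4% to 26.7%, against 24.8%). A protein-coding gene was nearest for 83 (15.6%, 12.6% to 18.9%), against 26.8% of nearer intergenic peaks (24.4% to 29.3%). Small RNA genes together were nearest for 84 (15.8%), against 12.7% of nearer intergenic peaks. They were 26 small nucleolar, 26 small nuclear, 22 microRNA, 6 miscellaneous and 4 ribosomal RNA genes. Genes marked as to be experimentally checked (TEC) were nearest for 33 far peaks (6.19%, 4.30% to 8.59%). The share in nearer intergenic peaks was 4.21% (3.18% to 5.46%), an interval that overlapped.

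The coding share was lower in each band out to 100 kb. It was 31.1% of distal intergenic peaks up to 10 kb from a TSS, 27.3% at 10 to 25 kb, 22.0% at 25 to 50 kb, 15.5% at 50 to 100 kb (exact interval 11.7% to 20.1%) and 16.7% at 100 to 200 kb (11.2% to 23.5%). Beyond 200 kb it was 5 of 44 and 4 of 24 peaks. By strength, the median fold was 4.59 for pseudogene, long non-coding and coding neighbours, the tied value named above, so it does not compare them. Of these peaks, 11.3%, 11.5% and 12.05% had a q under 0.01. Among the 33 peaks next to TEC genes, 8 had one (24.2%, 11.1% to 42.3%), an interval that overlapped the others.

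**Figure D5:**
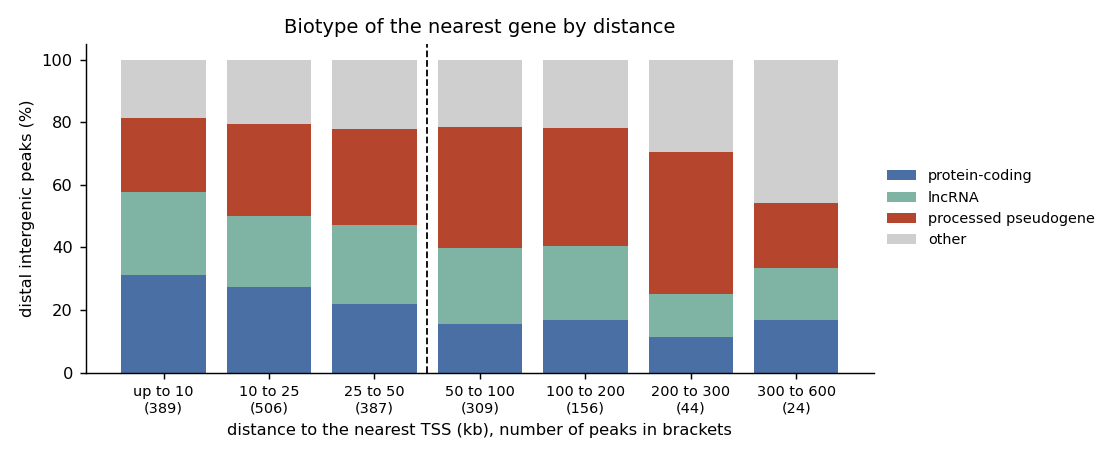
Biotype of the nearest gene as a share in % of distal intergenic peaks, by distance to the nearest TSS in kb, with the number of peaks of each bar in brackets and a dashed line at 50 kb. The protein-coding share goes from 31.1% in the nearest bar to 15.5% just beyond 50 kb, where processed pseudogenes reach 38.5%.

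Of the 22 far peaks nearest to a microRNA gene, 4 had a gene with a miR symbol. For 3 of these RefSeq (GRCm38.p6) gives the mature sequence, printed here because Mir6348 and Mir6354 are nearest genes in the same stretch of 3 far peaks on chromosome 1. Capitals mark the seed, bases 2 to 8, which pairs with target RNAs.
mmu-miR-6348: uCAGCCUUuauaaggugugugu
mmu-miR-6354: uGCCCUGGggaucaggucucu
mmu-miR-6379: uCCCUGGAguuuuacagcuaga
The 3 seeds differed from each other, although those of miR-6354 and miR-6379 shared the run CCCUGG at shifted positions. The peaks lay 70.6 kb from Mir6348 (fold 4.51), 63.5 kb from Mir6354 (5.05) and 115 kb from Mir6379 on chromosome 3 (4.59).

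The 83 far peaks next to coding genes belonged to 77 genes, and few genes had several. With 2 far peaks each there were 6 genes, and no coding gene had 3 or more. Of these 6, 1 was the gene without a symbol on contig JH584304.1, where one of its peaks lay in high background. Among genes of every biotype, 42 of 477 had 2 or more far peaks and 9 had 3 or more, all of them non-coding.

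The coding genes with 2 far peaks on placed chromosomes held transcriptional regulators, a microtubule-severing enzyme and a guidance protein. Fign, which encodes the microtubule-severing fidgetin, had peaks 316 kb and 198 kb downstream of its start (chromosome 2, 63611486 to 63611884 and 63730410 to 63730578), with folds of 5.12 and 4.51 from 6 and 5 fragments. Eya1, a transcriptional coactivator with phosphatase activity needed in ear and kidney development, had peaks 73.3 kb and 207 kb upstream (chromosome 1, 14453731 to 14453834 and 14587124 to 14587336), with folds of 4.61 and 4.54 from 7 and 6 fragments. Tle4, a corepressor of the Groucho family, had peaks 176 kb and 168 kb downstream of its start (chromosome 19, 14396964 to 14397228 and 14405247 to 14405398), with folds of 4.48 and 4.43 from 5 fragments each.

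Sema6d, a transmembrane semaphorin that guides axons, had 2 peaks 339 kb and 324 kb upstream (chromosome 2, 123592658 to 123592791 and 123608125 to 123608286), with folds of 4.59 and 4.51 from 5 fragments each. Ndufa4, which encodes a protein of the mitochondrial respiratory chain, had peaks 463 kb and 95.9 kb downstream of its start (chromosome 6, 11444554 to 11444670 and 11811353 to 11811500), with folds of 4.54 and 4.32 from 6 and 8 fragments. None of these 10 peaks had a q under 0.01, and the lowest was 0.0104 at the stronger Fign peak.

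Of coding genes with 1 far peak, the strongest after those named above was Amd2, a gene of polyamine synthesis (fold 5.85, 66.5 kb). Slitrk1, a neuronal membrane protein, had a peak 229 kb upstream, and Atp6v1h, a subunit of the proton pump of lysosomes, one 84.4 kb downstream of its start, both with a fold of 5.35. By the deposited gene ontology terms, 16 of the 77 genes (20.8%, exact interval 12.4% to 31.5%) carried the term for DNA-templated transcription, against 5.79% of 311 coding genes with nearer intergenic but no far peaks (3.47% to 8.99%) and 9.28% of the 1509 other coding genes of the list (7.86% to 10.9%). They included the homeobox factors Dlx2 (fold 4.65, 81.7 kb upstream) and Meis2 (5.01, 87.7 kb downstream), the B-cell and mesenchymal factor Ebf1 (4.61, 100.1 kb), the zinc-finger factors Bnc2 (4.59, 70.1 kb) and Trps1 (4.59, 209 kb), Eya4 (4.59, 125 kb) and the Polycomb-associated Rybp (4.59, 97.0 kb).

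The term for development of the organism was carried by 12 of the 77 (15.6%, exact interval 8.32% to 25.6%), against 5.79% in the nearer intergenic (3.47% to 8.99%) and 5.17% in the other coding genes (4.11% to 6.41%). Among these were growth factors and guidance molecules, such as Pdgfa, a mitogen of fibroblasts (fold 4.59, 67.9 kb), Vegfc, which drives lymphatic growth (4.69, 71.1 kb), the ephrin Efna5 (5.19, 76.1 kb) and the netrin receptor Unc5c (4.46, 89.4 kb). The synapse term was carried by 9 (11.7%, 5.49% to 21.0%, against 4.82% and 4.51%, and 7.25% of the 648 genes with intronic peaks, 5.38% to 9.53%), with the glutamate receptor genes Grm7 and Grid1 and the vesicle gene Sv2b. Cell adhesion stood at 5.19% against 3.86% and 4.04%, and 5.86% of the genes with intronic peaks. Membrane was alike at 39.0%, 37.9% and 39.6%, and so was nucleus at 27.3%, 28.6% and 29.8%. Cytoplasm stood at 24.7% against 35.0% and 38.8%. These terms were chosen after their shares had been seen, and genes rather than samples were counted, so the values describe this list.

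Of 5 lists of genes with a bearing on the cells or on far enhancers, chosen with earlier results of these data known, 2 had members with a far peak. They were 4 of 77 neural adhesion and synapse genes, namely Slitrk1 (fold 5.35), Cdh18 (4.69), Grm7 (4.54) and N-cadherin, Cdh2 (4.45), and 1 of 60 developmental regulators, Meis2. Over all coding genes of the older assembly, 0.329% had a far peak and 6.83% had any peak. No far peak was nearest to any of 59 fibroblast and matrix genes, 61 TGF-beta, BMP and Wnt genes or 26 KLF and SP genes, of which 11, 5 and 1 had a peak elsewhere. Any peak was found at 23 of the 77 neural and 8 of the 60 developmental genes. Outside these lists, far peaks stood next to Bmper, a BMP-binding protein (fold 4.54, 193 kb), Adamts3, a protease that trims procollagen (4.54, 95.9 kb), and Ext1, an enzyme of heparan sulfate synthesis (4.49, 109 kb), named after their values had been seen.

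Most coding genes with a far peak had no other. Of the 77, 21 (27.3%) also had a peak of another class, with 13 in introns, 8 nearer intergenic and 4 at promoters. Meis2, Efna5, Bmper, Unc5c and Zfp804a each had an intronic peak beside the far one, and Vegfc and Dlx2 a nearer intergenic peak, 26.9 kb and 18.8 kb upstream. Igbp1b, Ndufa4, Esrrg and the unnamed gene on the contig had a promoter peak. The promoter peaks of Esrrg and of the contig gene lay in high background, 17.9 and 24.7 times the lowest. Among the 400 non-coding genes with a far peak, 48 had another.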

How the data were processed

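ChIP-seq was represented by 1 KLF4 ChIP and 1 input library, grouped by sample titles. Per the submitters' processing notes, the build was GRCm39 and the tools were MACS2 2.2.7.1, ChIPseeker 1.44.0, Bowtie2 2.4.2, fastp 0.24.0, bcl2fastq 2.17 and deepTools 3.4.1. How they were set was not given in the sources used here. As deposited by the authors, fold is a ratio of ChIP to background at the summit. The deposited −log10 columns, p-values and q-values per peak are the authors' too. Annotation, nearest gene, biotype, gene ontology terms and distance were used as deposited.

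ChIP fragments and background were recovered from fold, taken as fragments plus 1 over background plus 1, and the Poisson p. For all 4216 peaks a whole number came within 0.001 of the −log10 p, and the step was tested on simulated data. Library totals were not used, so absolute depth is unknown. Shares have 95% exact (Clopper-Pearson) intervals.

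Of 477 genes with far peaks, 301 matched by symbol to a GRCm38.p6 gene table, used for names and gene order only. That is 62.7% of far peaks, so coding neighbours were counted for stretches alone, of which 42 of 46 had a matched gene. A planned count of KLF motifs was not run, since no genome sequence was used here.

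Named were the 10 strongest far peaks outside high background, the 5 with the most fragments inside it, the 5 farthest, 3 each side of the limit, coding genes with 3 or more far peaks (0 genes, so those with 2 were named instead) and up to 4 per list. Others were named after their values had been seen. Members and lists were chosen with earlier results of these data known. Values were computed with scipy 1.17.1, numpy 2.4.6 and pandas 2.3.3 in Python 3.11.15, and figures with matplotlib 3.10.9.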

Additional observations from a re-analysis of the deposited data

How the results depend on the processing

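Results were recomputed under 6 alternatives. No paired analysis was possible because there is 1 library of each kind. Placed chromosomes alone moved no value beyond its limit, and leaving out high-background peaks moved the share in high background alone, to 0% by construction. Beyond 100 kb there were 224 far peaks (5.31% of the list), with a median distance of 160306 bp, 84.8% with 5 or 6 fragments, 0% in high background, 3 coding genes with several and 13 isolated peaks, meaning no other listed peak within 1 Mb. With q under 0.01 there were 64 (8.71%), with median fold 5.35, median distance 83064 bp, 45.3% with 5 or 6 fragments, 10.9% in high background and 0 coding genes with several. With q under 1e-05 there were 8 (6.96%), with median fold 3.52, median distance 65377 bp and 0% with 5 or 6 fragments. Of these, 75% lay in high background, 25% were next to a coding gene, and 0 coding genes had several. With only such peaks kept, 2 far peaks had no other kept peak within 1 Mb. Counted alike among kept peaks, it was 39 with q under 0.01 and 39 with 1 peak per gene, against 30 in the whole list. With 1 peak per gene, 0.224% lay in high background and by construction 0 coding genes had several. Fewer peaks enter under stricter limits; other causes were not tested. Most far peaks rest on 5 or 6 fragments, which limits what any of them shows alone.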

Other observations

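Non-coding genes with 3 or more far peaks were 9. In high input background lay 5 of the 6 peaks of Gm13806 and all 3 of Ifngas1, and none of those of the other 7 genes. These were the pseudogenes Gm19102 (4 peaks, folds 4.59 to 5.35), Gm42474 (3, 4.68 to 4.93) and Gm43234 (3, 4.54 to 4.80), the TEC gene Gm38269 (4, 4.54 to 5.64), the small nucleolar RNA gene Gm22223 (3, 4.48 to 4.81), the long non-coding RNA gene Gm29686 (3, 4.53 to 4.65) and the small nuclear RNA gene Gm25258 (3, 4.54 to 4.59), whose 3 peaks lay between Bmp2 and Hao1.

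The median gap from a far peak to the nearest listed peak was 205 kb (quartiles 86.9 and 496 kb), against 176 kb for nearer intergenic, 188 kb for intronic and 137 kb for promoter peaks. Of the 531 placed far peaks, 16 lay within 10 kb of one (3.01%, exact interval 1.73% to 4.85%), against 10.4% of nearer intergenic (8.78% to 12.2%), 12.7% of promoter (10.5% to 15.1%) and 4.89% of intronic peaks (3.80% to 6.18%), whose interval overlapped that of far peaks. The 16 included 5 high-background peaks near Gm13806 and 3 near Ifngas1, and the class shares were not computed without high background. Outside high background, neighbouring far peaks within 10 kb of each other formed 3 pairs, near Tle4 (gap 8.02 kb), Gm37223 (7.84 kb) and Gm43779 (4.37 kb). At 30 far peaks (5.65%, 3.84% to 7.97%) no other listed peak lay within 1 Mb, of which 6 were on chromosome 14 and 5 on chromosome 3. The shares of nearer intergenic (4.34%, 3.28% to 5.61%), intronic (4.45%, 3.41% to 5.69%) and promoter peaks (4.04%, 2.83% to 5.57%) had intervals that overlapped it. Slitrk1 was nearest to one of these, 1494 kb from its closest listed neighbour.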
